A study of Mus musculus with 20 samples.

Results

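The leukocyte adhesion genes described here are 10 transcripts chosen by name. They are the integrin ligands Icam1 and Icam2, the vascular selectins Selp and Sele, and the selectin ligand Selplg. The others are the leukocyte integrin chains Itgal, Itgam, Itgax and Itgb2, and the integrin chain Itga4. All 10 were found by their symbols among the 26608 genes of one count table and the 30809 genes of another. They were read by sequencing the total RNA of whole kidneys from aged mice after a bone marrow transplant. The first table held 6 kidneys from animals with Control marrow (animals 3, 11, 12, 13, 16 and 17) and 6 from animals whose blood system was LOY (5, 8, 9, 10, 14 and 18). LOY stands for loss of the Y chromosome, here in the blood-forming cells alone. In the second table all animals were LOY, and 4 (6, 8, 9 and 10) had the control compound and 4 (15, 16, 17 and 18) ABT263, a senolytic that inhibits proteins of the BCL-2 family.  In all groups the kidney itself stayed the host's, so that its vessels and tubules were not part of the transplant, while macrophages of the host can persist in such animals. The labels give neither the donors, the way in which the Y chromosome was removed, the ages in numbers, nor the dose and timing of ABT263. Total gene counts per kidney ran from 13332563 to 19386408 in the LOY table and from 14587809 to 20791633 in the ABT-263 table. The markers of kidney tubules and podocytes fixed for the tissue check were detected in every group, with summed levels from 3786 to 8358 CPM over the 12 kidneys and from 6425 to 8297 CPM over the 8. CPM is a gene's count relative to the library size, scaled between libraries by the trimmed mean of M values (TMM).

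Some libraries stood apart from the rest of their group, by the median over genes of the squared difference in counts relative to that of Poisson sampling. This ratio was 33.9 to 75.5 in the pairs with LOY animal 8 and 6.83 to 24.9 in the other LOY pairs, and 9.91 to 17.6 in the pairs with Control animal 3 and 4.16 to 7.85 in the other Control pairs. It was 15.5 to 17.5 in the pairs with control-compound animal 6 (the others 4.39 to 5.30) and 7.49 to 9.47 in those with ABT263 animal 16 (the others 3.62 to 4.11). Values with and without these animals are given where a result turns on them.

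Leukocytes leave the blood in steps. Selectins on the vessel wall (P-selectin from Selp, E-selectin from Sele) catch carbohydrate on PSGL-1, the product of Selplg, and slow the cell. Integrins on the leukocyte are then switched to their binding state and hold ICAM-1 and ICAM-2. The β2 integrins share the chain encoded by Itgb2, which pairs with the α chain of Itgal (LFA-1, found on lymphocytes and most other leukocytes), Itgam (Mac-1, on monocytes, macrophages and neutrophils) or Itgax (on dendritic cells and many kidney macrophages). The α4 chain from Itga4 pairs with the products of Itgb1 or Itgb7 and binds VCAM-1. ICAM-1 is induced by inflammatory signals through NF-κB in endothelium and in injured tubules, whereas ICAM-2 is present on resting endothelium.

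The stretches of DNA upstream of 3 members are shown because these genes stand for the ligand that rose, the integrin chain with the largest change, and a selectin that did not pass any test. Each is the 250 bases before the RefSeq transcription start (GRCm38.p6, plus strand). They lie at chr9:21015690-21015939 for Icam1, chr7:128062390-128062639 for Itgam and chr1:164047984-164048233 for Sele. Capitals mark matches on either strand to GAGGAA, a purine-rich core bound by the myeloid factor PU.1, or to a κB-type motif, GGG and CC with 5 free bases between them, a loose form of the site bound by NF-κB.
Icam1: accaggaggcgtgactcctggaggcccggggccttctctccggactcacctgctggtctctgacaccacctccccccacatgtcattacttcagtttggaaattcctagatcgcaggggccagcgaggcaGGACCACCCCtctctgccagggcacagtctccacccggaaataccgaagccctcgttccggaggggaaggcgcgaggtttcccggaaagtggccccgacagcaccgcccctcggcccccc
Itgam: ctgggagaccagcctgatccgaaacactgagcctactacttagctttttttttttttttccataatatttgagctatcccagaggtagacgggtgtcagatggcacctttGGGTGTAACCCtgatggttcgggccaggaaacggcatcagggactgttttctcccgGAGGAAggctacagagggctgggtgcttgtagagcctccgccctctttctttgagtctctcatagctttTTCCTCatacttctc
Sele: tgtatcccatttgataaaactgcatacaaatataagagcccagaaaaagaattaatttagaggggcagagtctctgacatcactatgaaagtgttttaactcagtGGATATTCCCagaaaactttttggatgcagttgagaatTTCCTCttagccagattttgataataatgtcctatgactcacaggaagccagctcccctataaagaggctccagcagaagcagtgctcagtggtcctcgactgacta
The Itgam stretch held GAGGAA on the strand shown, starting 84 bases before the start, and on the other strand, 15 bases before it, where it reads ttcctc. It also held 2 overlapping κB-type matches, one on each strand, starting 140 and 139 bases before the start. The Icam1 stretch held no GAGGAA and 1 κB-type match at 120 bases, and the Sele stretch 1 match to each motif, at 107 and 145 bases. Only these exact patterns were searched. The letters tggaaattcc in the Icam1 stretch lack the opening GGG, so they were not counted and stay in lower case. Other forms of a κB site may therefore be present without a mark. Both motifs are common: GAGGAA was present in 23.3% and the κB-type motif in 45.8% of 32851 such stretches. Of the 10 members 6 had an entry in the RefSeq promoter table. Selp held 1 κB-type match at 15 bases, and Itgax and Itga4 held neither motif. The table gave no entry for Icam2, Selplg, Itgal or Itgb2. A match is a string of letters and says nothing of binding.

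Per kilobase of exon, Icam1 was the most abundant member in every group, at 9.80 ± 1.43 CPM per kilobase in Control and 17.1 ± 4.28 with LOY (SD over 6 kidneys a group). In Control kidneys Icam2 (5.03 ± 1.116), Itgb2 (3.08 ± 0.512) and Itgax (1.603 ± 0.313) followed, all in CPM per kilobase, and each of these 4 genes lay apart from the next in all 6 kidneys. Below them Itgam (0.900), Itgal (0.790), Selplg (0.484), Itga4 (0.453), Sele (0.261) and Selp (0.0587) overlapped from neighbour to neighbour in mean CPM per kilobase. In LOY kidneys the order of the means was the same, but the levels of Icam1 and Icam2 overlapped between kidneys, as did those of Icam2 and Itgb2. In the ABT-263 table Itgb2 (5.64 ± 1.13 and 4.92 ± 0.886 CPM per kilobase, n = 4 each) stood second to Icam1 in both groups, ahead of Icam2 with overlapping ranges. The transcript of the common β2 chain therefore had a higher level per length than each of its 3 α partners in every group's mean. The length used is the union of all annotated exons of a gene, 13.98 kilobases for Itga4 and at most 6.57 for the others. The low rank of Itga4 depends on this length. In CPM its Control mean (6.33) exceeded those of Itgal (5.19) and Itgam (4.52). Levels were not compared between the tables, which list different gene sets.

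The first comparison sets kidneys under LOY blood against kidneys under Control blood. All 9 tested members had higher fitted levels in LOY than in Control kidneys, and 2 passed the threshold. They were Icam1, a ligand, and Itgb2, the β chain shared by integrins that bind it. Across all 14978 tested genes 1.11% were called higher and 0.0601% lower, and 52.3% had a positive change. An unadjusted p under 0.05 was reached by 6 of the 9 members, all higher, and by 13.5% (higher) and 9.33% (lower) of all tested genes. The median log2 fold change of the 9 members was 0.66, against 0.02 over all tested genes. Selp did not reach the count filter and had no result in this fit. In whole tissue, more cells of a type and more RNA per cell cannot be told apart.

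Icam1 (chromosome 9, 21015985 to 21028817, GRCm38) ranged from 32.5 to 51.6 CPM in Control kidneys with a median of 42.9, and from 57.0 to 101 CPM in LOY kidneys with a median of 70.02. The groups did not overlap, which was true of 1.56% of all tested genes in this direction and of 0.461% in the other. LOY animals 8 (101 CPM) and 10 (91.9 CPM) were the highest, and LOY animals 5 (57.0) and 9 (57.6) lay close to the highest Control kidney, animal 3 (51.6). The log2 fold change of Icam1 was 0.80 ± 0.16 (SE), from 42.7 ± 6.26 to 74.7 ± 18.7 CPM (SD, n = 6 each; edgeR quasi-likelihood test, adjusted p = 0.0330).

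Itgb2 (chromosome 10, 77530252 to 77565708) ranged from 6.82 to 10.9 CPM in Control kidneys with a median of 9.86, and from 12.3 to 21.7 CPM in LOY kidneys with a median of 16.3. Again 6 of 6 LOY kidneys lay above every Control kidney. The order among LOY kidneys differed from that of Icam1: animals 10 (21.7), 14 (20.4) and 18 (18.1 CPM) were highest, and animal 8, highest for Icam1, stood at 14.5 CPM. The log2 fold change of Itgb2 was 0.84 ± 0.17, from 9.39 ± 1.56 to 16.8 ± 3.83 CPM (SD, n = 6 each; edgeR adjusted p = 0.0343).

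**Figure D1:**
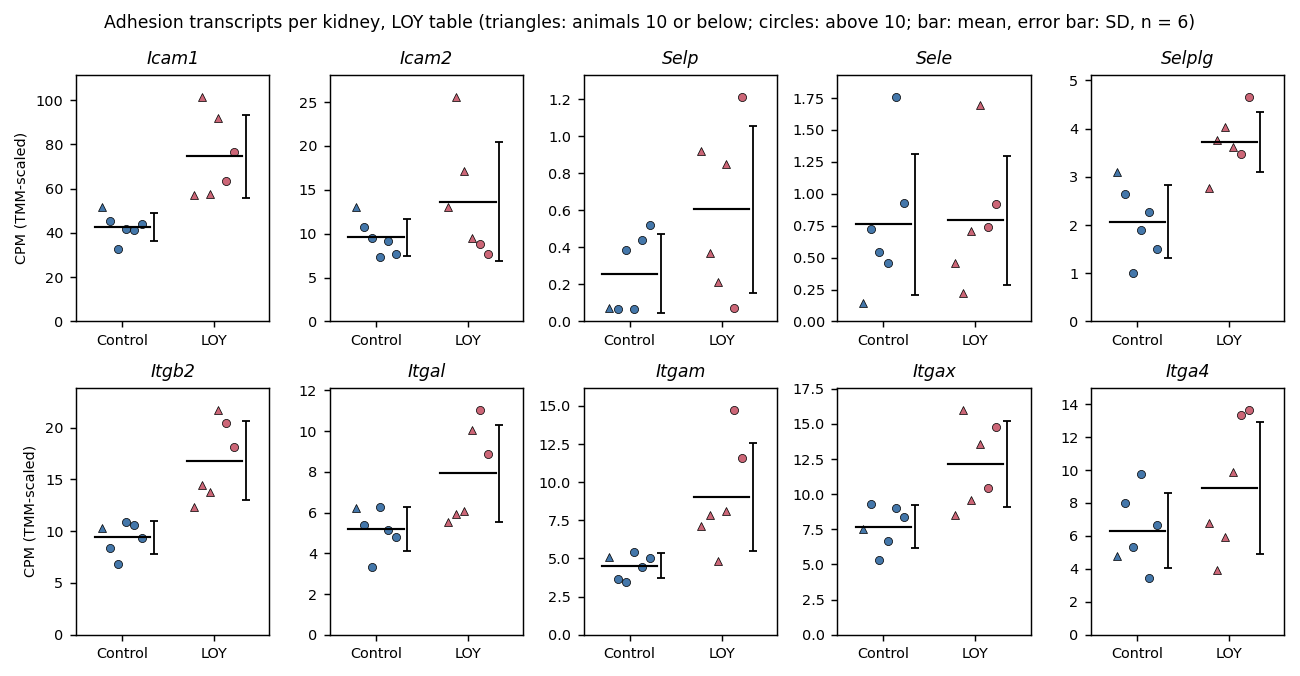
Level of each adhesion transcript (CPM, y axis from 0) in 6 Control and 6 LOY kidneys, with the mean as a line and the SD as an error bar; triangles are animals numbered 10 or below and circles those above 10. Icam1 and Itgb2 separate the groups in all 12 kidneys, while the other 8 panels overlap.

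Icam1 kept a log2 fold change between 0.70 and 0.87 when any 1 kidney was left out, and Itgb2 one between 0.74 and 0.90. The adjusted p exceeded 0.05 for Icam1 without Control animal 11 (0.0779), 12 (0.113), 13 (0.0777), 16 (0.0888) or 17 (0.0908), or LOY animal 10 (0.0882). For Itgb2 it did so without Control animal 11 (0.0921), 12 (0.113), 13 (0.0724), 16 (0.0850) or 17 (0.0989), or LOY animal 10 (0.0882) or 14 (0.0552). Without LOY animal 8, the library farthest from its group, Icam1 stood at 0.70 (adjusted p = 0.0241) and Itgb2 at 0.88 (adjusted p = 0.0239), and without Control animal 3 at 0.86 (0.0160) and 0.87 (0.0255). Without LOY animals 8 and 10 together Icam1 stood at 0.56 (adjusted p = 0.0655) and Itgb2 at 0.76 (adjusted p = 0.0733), and 0 members passed in edgeR (29 of all tested genes did, and 2195 at an unadjusted p under 0.05).

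Among the α chains of the β2 integrins, Itgam had the largest change and Itgal the smallest, and none of the 3 passed in edgeR. Itgam (chromosome 7, 128062640 to 128118491) lay between 3.49 and 5.42 CPM in Control kidneys (median 4.75) and between 4.82 and 14.7 CPM in LOY kidneys (median 7.96). LOY animals 14 (14.7 CPM) and 18 (11.6 CPM) stood above the other LOY kidneys, and LOY animal 9 (4.82 CPM) fell within the Control range. Its log2 fold change was 0.995 ± 0.24 (adjusted p = 0.0577). DESeq2 (0.99, adjusted p = 0.00552) and voom (0.98, adjusted p = 0.0246) called it. Both tools called several times as many genes over the whole table as edgeR did, which also applies to their calls for the members below.

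Itgax (chromosome 7, 128129547 to 128150657) lay between 5.34 and 9.29 CPM in Control (median 7.94) and between 8.50 and 16.0 CPM in LOY kidneys (median 12.0), with LOY animal 8 highest and 5 of 6 LOY kidneys above every Control kidney. Its log2 fold change was 0.66 ± 0.19 (edgeR adjusted p = 0.0990; DESeq2 0.0277). Itgal (chromosome 7, 127296260 to 127335138) lay between 3.33 and 6.27 CPM in Control (median 5.27) and between 5.53 and 11.0 CPM in LOY kidneys (median 7.49). Only LOY animals 10, 14 and 18 exceeded the Control range for Itgal, and its log2 fold change was 0.61 ± 0.22 (edgeR adjusted p = 0.150). Itga4 (chromosome 2, 79255426 to 79333123), the α chain of the VCAM-1 receptor, lay between 3.44 and 9.73 CPM in Control (median 6.00) and between 3.92 and 13.6 CPM in LOY kidneys (median 8.34). Its groups overlapped in 3 of 6 LOY kidneys, and the log2 fold change was 0.50 ± 0.31 (adjusted p = 0.332).

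Selplg (chromosome 5, 113818536 to 113832644), whose product carries the selectin-binding carbohydrate on leukocytes, was sparse in this table with 13 to 96 counts per kidney. It lay between 1.01 and 3.10 CPM in Control (median 2.08) and between 2.77 and 4.66 CPM in LOY kidneys (median 3.70). Only LOY animal 5 fell within the Control range, and the log2 fold change was 0.85 ± 0.26 (edgeR adjusted p = 0.114; DESeq2 0.0304; voom 0.0335). Its partners on the vessel wall were near the limit of detection. Selp (chromosome 1, 164115264 to 164150026) had 1 to 9 counts in each Control kidney (23 in all) and 1 to 25 in each LOY kidney (63 in all). On the log2 CPM scale Selp differed by 0.83 (-1.56 ± 0.85 against -0.72 ± 1.06, Control first, SD over 6 kidneys a group; exact two-sided permutation p = 0.165). Sele (chromosome 1, 164048234 to 164057677) had 67 counts in Control and 79 in LOY libraries and ranged from 0.148 to 1.76 CPM in Control and from 0.222 to 1.70 CPM in LOY kidneys. The ranges of Sele nearly coincided (log2 fold change 0.08 ± 0.52, adjusted p = 0.938). A difference of the size seen for Icam1 would lie within 2 SE of 0 for Sele and was not detectable at this depth.

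Icam2 (chromosome 11, 106377656 to 106388075) lay between 7.31 and 13.1 CPM in Control (median 9.34) and between 7.66 and 25.6 CPM in LOY kidneys (median 11.3). Its log2 fold change was 0.51 ± 0.27 (adjusted p = 0.264). LOY animals 8 (25.6 CPM) and 9 (17.2 CPM) exceeded the Control range, and LOY animals 10, 14 and 18 (9.56, 8.87 and 7.66 CPM) lay within it. Without LOY animal 8 the log2 fold change of Icam2 was 0.23 (adjusted p = 0.554). Icam2 was mostly higher at low animal numbers, with overlap. The 5 kidneys numbered 10 or below lay between 9.56 and 25.6 CPM, and the 7 numbered above 10 between 7.31 and 10.7 CPM. Of those 5, 4 were LOY and 1 was Control animal 3, so number and group are mixed. In the same split the median was higher at the low numbers for Icam1 (57.6 against 44.2 CPM) and lower for Itga4 (5.95 against 7.97 CPM). What the animal numbers stand for is not given in the labels.

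Because 4 of 6 LOY but only 1 of 6 Control animals were numbered 10 or below, the 9 tested members were also compared among the animals numbered above 10, 5 Control and 2 LOY. There the integrin chains differed by more than over all kidneys: Itgam by 1.57 (adjusted p = 0.000846), Itgb2 by 1.06 (adjusted p = 0.00352) and Itgal by 0.98 (adjusted p = 0.0263) on the log2 scale in edgeR. Icam1 differed by 0.77 (adjusted p = 0.00194), close to its value over all kidneys, and Icam2 turned to -0.11 (adjusted p = 0.858). Itgax (0.71, adjusted p = 0.0982), Selplg (1.13, adjusted p = 0.0982) and Itga4 (1.01, adjusted p = 0.0777) did not pass, nor did Sele (-0.07, adjusted p = 0.977). The 2 LOY kidneys of this subset, animals 14 and 18, were the highest LOY kidneys for Itgam (14.7 and 11.6 CPM) and Itga4 (13.3 and 13.6 CPM). With animal 10 they were also the highest for Itgb2 and Itgal. The subset changes the LOY kidneys, the Control kidneys and the animal numbers together, and the source of the larger differences was not tested. More genes were also called over the whole table in this subset than in the reported fit. With animal number above 10 as a term over all 12 kidneys the estimates were 0.70 for Icam1, 0.90 for Itgb2, 1.18 for Itgam and 0.05 for Icam2. In that fit 0 members and 0 of all genes passed in edgeR (1194 genes at an unadjusted p under 0.05), and the adjusted p was 0.132 for Icam1, 0.0986 for Itgb2 and 0.0768 for Itgam.

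Some leukocyte marker lists separated the groups as Icam1 and Itgb2 did, and others overlapped. The summed level of 10 macrophage markers lay between 223 and 363 CPM in Control and between 398 and 538 CPM in LOY kidneys, without overlap. Taken singly the 10 moved unequally, with log2 fold changes from 0.05 to 1.32. In edgeR 4 of them passed, and 4 separated the groups (1.11% and 1.56% of all tested genes in this direction). The T and natural killer cell markers, 8 of them detected, summed to between 8.57 and 13.4 CPM in Control kidneys. With LOY they summed to between 16.9 and 28.0 CPM, also without overlap, with Ncr1 at 0 in all 12 kidneys. Of the 6 tested singly 2 passed in edgeR and 1 separated the groups (1.11% and 1.56% of all tested genes). Among those below the count filter, Klrb1c averaged 0.264 and 0.253 CPM and Gzmb 0.133 and 0.573 CPM (Control first). The 4 general leukocyte markers (Ptprc, Cd52, Laptm5 and Coro1a) went from between 56.8 and 108 to between 126 and 177 CPM. The 7 dendritic cell markers overlapped (12.9 to 19.8 against 15.4 to 21.9 CPM, Control first), as did the 6 B and plasma cell markers (16.7 to 91.9 against 39.9 to 124 CPM). Neutrophil markers were close to 0 in both groups: the 9 together summed to 0.923 to 3.25 CPM in Control and 1.07 to 3.55 CPM in LOY kidneys. Endothelial markers overlapped (589 to 942 against 561 to 1187 CPM, 9 genes), with LOY animal 8 highest and LOY animal 18 lowest. The sum of 6 proximal tubule markers moved the other way, from between 9016 and 11997 CPM in Control to between 4379 and 9332 CPM with LOY. It was under the Control range in 5 of 6 LOY kidneys. Slc34a1 alone averaged 6683 CPM in Control and 4726 CPM in LOY kidneys. Taken singly, 0 of the 6 passed in edgeR and 0 separated the groups, with log2 fold changes from -1.17 to -0.10. An unadjusted p under 0.05 was reached by 5 of them, all lower (9.33% of all tested genes). The part of these cells in the members' values was not tested.

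Ratios of counts within a kidney set each member beside a partner without any scaling between libraries. For 11 ratios fixed by role, the one past the threshold was Icam1 to the endothelial gene Pecam1. Its log2 ratio went from -0.62 ± 0.27 in Control to 0.26 ± 0.38 with LOY (SD over 6 kidneys a group), a difference of 0.88 (exact two-sided permutation p = 0.00433, adjusted p = 0.0476 over 11 ratios). This ratio was above the Control range in 5 of 6 LOY kidneys, LOY animal 5 being the exception at -0.28 against -0.20 in Control animal 13. It passed without Control animal 13, LOY animal 5 or LOY animal 9, and not when any other kidney was left out (difference 0.78 to 0.99, adjusted p 0.0238 to 0.0714). Icam2 to Pecam1 differed by 0.50 (-2.79 ± 0.24 to -2.29 ± 0.67, exact permutation p = 0.126, adjusted p = 0.363). Pecam1 itself had a log2 fold change of -0.11 ± 0.14 (edgeR adjusted p = 0.628). The ratio of Icam1 to Pecam1 is therefore not a result separate from the change of Icam1 given above.

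Itgb2 relative to the leukocyte gene Ptprc was nearly the same in both groups. The log2 ratio was -0.96 ± 0.22 in Control and -0.94 ± 0.18 with LOY, a difference of 0.02 (exact permutation p = 0.874), and Selplg to Ptprc differed by 0.10 (exact permutation p = 0.639). Among the α chains, Itgal to Itgb2 was lower in LOY kidneys by 0.24 before adjustment (-0.86 ± 0.17 to -1.10 ± 0.14, exact permutation p = 0.0281), the values of 4 LOY kidneys lying under all of Control, but missed the threshold (adjusted p = 0.155). Itgam to Itgb2 had similar means (-1.05 ± 0.14 and -0.95 ± 0.42, exact permutation p = 0.584) and a wider spread in LOY kidneys, of which 4 lay above and 2 (animals 9 and 10) below the whole Control range. Itgax to Itgb2 differed by -0.18 (-0.29 ± 0.29 to -0.48 ± 0.37, exact permutation p = 0.364). Itga4 differed by -0.37 relative to Ptprc and by 0.35 relative to Itgb1, its β chain partner (exact permutation p = 0.264 and 0.303).

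**Figure D2:**
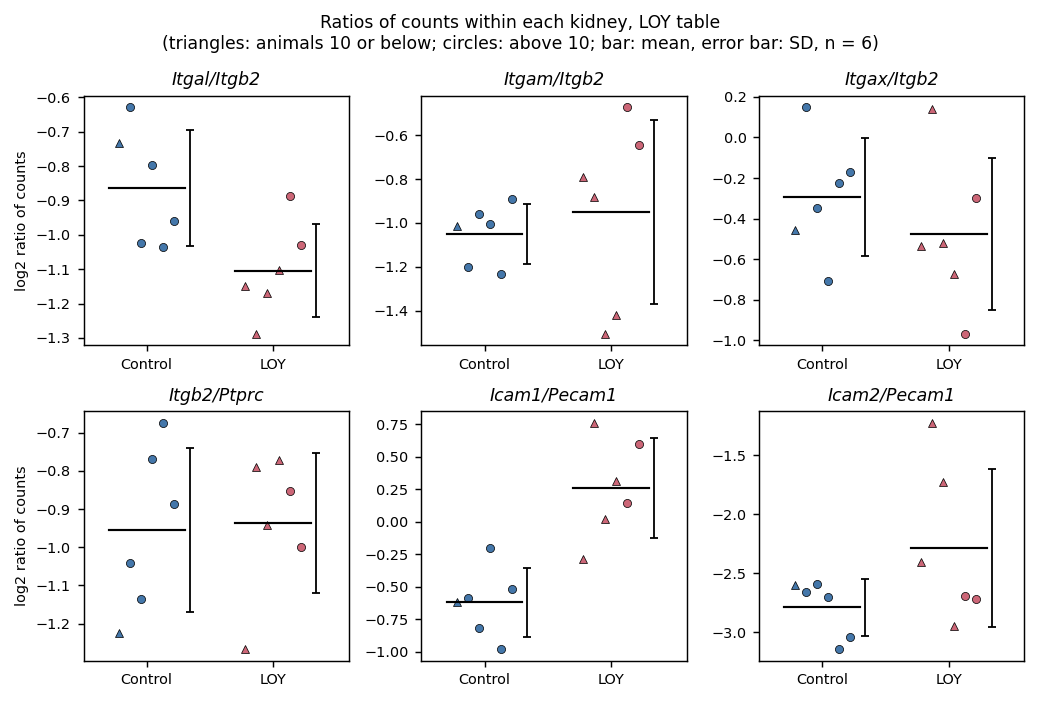
Log2 ratio of the counts of 2 genes within each kidney (y axis) for 6 of the ratios in Control and LOY kidneys; the line is the mean, the error bar the SD, triangles are animals numbered 10 or below and circles those above 10. Icam1 to Pecam1 is higher in LOY kidneys with 1 overlapping kidney, Itgb2 to Ptprc is at about the same level in both groups, and Itgam to Itgb2 spreads wider in LOY kidneys.

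The genes whose levels ran most like Icam1 and Itgb2 over the 12 kidneys were different sets. For Icam1 the 5 highest Pearson coefficients of log2 CPM belonged to the apoptosis effector Bak1 (r = 0.98), the macrophage growth factor Il34 (0.98), the NF-κB subunit Relb (0.98), Plac8 (0.98) and the tubular injury gene Lcn2 (0.97). For Itgb2 they belonged to the chemokine Ccl8 (r = 0.96), the macrophage lysozyme Lyz2 (0.96), Ms4a6c (0.95), Clec4a1 (0.95) and the macrophage mannose receptor Mrc1 (0.94). With the group means removed, these coefficients were 0.93 to 0.95 for the Icam1 set and 0.81 to 0.88 for the Itgb2 set. The genes were picked for high coefficients and the kidneys share their group difference and library depth, so the values are a description without a test. Icam1 and Itgb2 themselves had r = 0.84 over the 12 kidneys and 0.48 with the group means removed. With the group means removed, Itgax had 0.83 with Icam1 and 0.45 with Itgb2, whereas Itgal had 0.93 with Itgb2 and 0.40 with Icam1.

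Other genes of the adhesion pathway were read from 4 lists. Of 16 genes that activate integrins or tie them to the cytoskeleton, all tested, 13 had a positive change (median log2 fold change 0.60). Tln1 (-0.03), Rap1b (-0.46) and Rassf5 (-0.16) were lower without a call. Over all tested genes 1.11% were called higher and 0.0601% lower in edgeR, and of these 16 genes 3 rose and 0 fell. They were Fermt3, the kindlin of blood cells that binds integrin β tails (7.99 ± 1.15 to 14.4 ± 3.06 CPM, log2 fold change 0.85 ± 0.16, edgeR adjusted p = 0.0285), the haematopoietic GTPase Rac2 (8.65 ± 2.53 to 19.7 ± 6.10 CPM, 1.18 ± 0.22, adjusted p = 0.0293) and the actin regulator Coro1a (24.5 ± 7.12 to 47.5 ± 15.3 CPM, 0.95 ± 0.21, adjusted p = 0.0451). Coro1a also belongs to the general leukocyte markers above. Dock2, which activates Rac in leukocytes, and the adaptor Fyb missed the threshold (1.04 ± 0.24 and 0.77 ± 0.19, edgeR adjusted p = 0.0506 and 0.0577). Their groups did not overlap, which was true of 1.56% of all tested genes in this direction. Without LOY animals 8 and 10, or with animal number as a term, 0 of the 16 passed.

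Of 20 genes listed for endothelial ligands, junctions and related adhesion receptors 14 were tested, and 2 rose: Cd44, a hyaluronan receptor of leukocytes and injured tubules (9.61 ± 2.49 to 24.2 ± 6.90 CPM, 1.33 ± 0.21, edgeR adjusted p = 0.0230), and Vcam1, the ligand of α4 integrins (33.5 ± 11.2 to 82.6 ± 24.6 CPM, 1.30 ± 0.22, adjusted p = 0.0250). The median of this list was 0.10, and at an unadjusted p under 0.05 in edgeR 3 were higher and 2 lower. Over all tested genes 1.11% were called higher, and 13.5% (higher) and 9.33% (lower) had an unadjusted p under 0.05. The number called in this list ran from 0 to 3 with 1 kidney left out. With animal number as a term none passed, as for all genes. Cx3cl1, a membrane-bound chemokine, had 0.44 ± 0.12 (adjusted p = 0.0874), and the junction gene Cd99l2 had -0.32 (adjusted p = 0.110). Of 13 further integrin chains 12 were tested and 0 passed in edgeR (2 at an unadjusted p under 0.05; DESeq2 called 1), with a median of 0.03. The leukocyte chain Itgb7, the alternative partner of α4, had the smallest p (5.17 ± 1.198 to 8.53 ± 1.55 CPM, 0.72 ± 0.18, adjusted p = 0.0668), followed by Itga5 (0.38) and Itgb3 (0.60). Of 10 genes that build selectin ligands 8 were tested and 0 passed in edgeR or DESeq2 (1 at an unadjusted p under 0.05), with a median of 0.12. Gcnt1, which branches the carbohydrate core, had the smallest p of these (-0.44 ± 0.19, adjusted p = 0.190), before St3gal6 (-0.24) and St3gal4 (0.20). Fut7, the fucosyltransferase of leukocyte selectin ligands, had 21 counts in Control and 19 in LOY libraries.

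**Figure D3:**
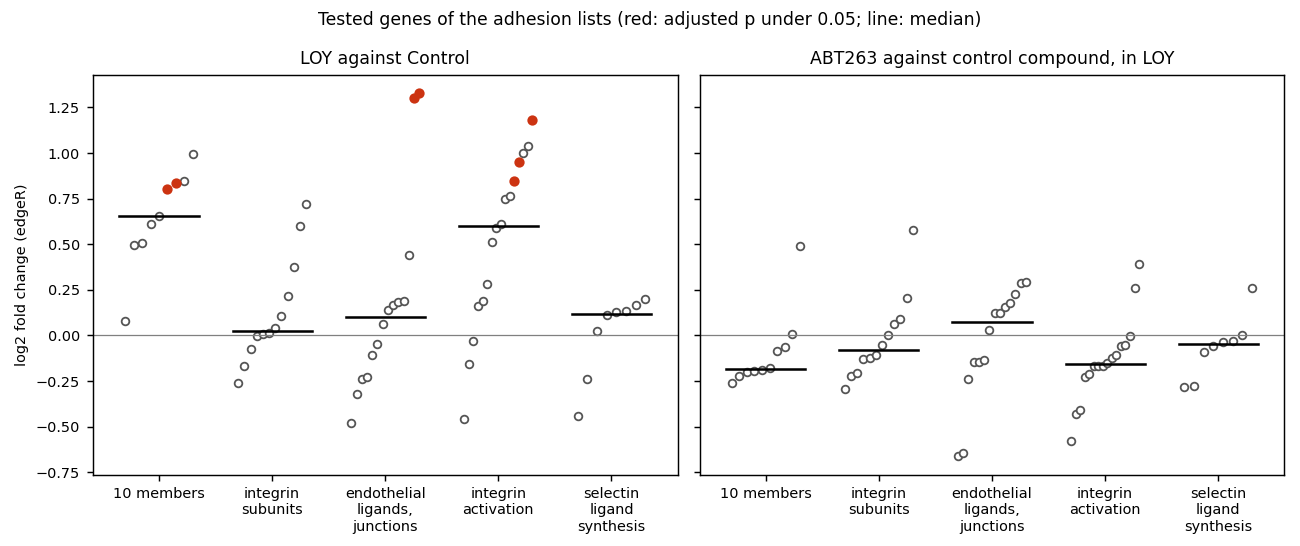
Log2 fold change (y axis) of each tested gene of the 10 members and of 4 lists of partner genes, for LOY against Control (left) and ABT263 against control compound (right); red points passed an adjusted p of 0.05 and the line is the median. With LOY the members and the integrin activation genes have medians of 0.66 and 0.60 and the other lists medians between 0.03 and 0.12, and no point is red on the right.

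The second comparison asked what ABT-263 changes in kidneys of LOY animals. The 10 members were all tested and 0 passed in edgeR or DESeq2 (0 at an unadjusted p under 0.05), with a median log2 fold change of -0.18 against 0.00 over all 16956 tested genes. In edgeR 0% of all tested genes were called, while 5.91% had an unadjusted p under 0.05 (2.95% higher and 2.96% lower); DESeq2 called 44 genes. Of the 10 members 8 had lower fitted levels with ABT263, between -0.06 and -0.26, and the exceptions were Itgax (0.01) and Selp (0.49); of all tested genes 49.4% had a positive change. None of the 10 separated the groups, as did 2.04% of all tested genes upward and 2.25% downward. Treatment and animal number cannot be told apart here, since the control compound went to animals 6 to 10 and ABT263 to animals 15 to 18.

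Icam1 stood at 55.7, 43.9, 35.6 and 51.2 CPM in control-compound animals 6, 8, 9 and 10, and at 36.5, 66.5, 35.8 and 36.9 CPM in ABT263 animals 15, 16, 17 and 18. Animal 16 held the highest level of all 8 kidneys, and the other 3 ABT263 kidneys lay at the low end of the control-compound range. The log2 fold change of Icam1 was -0.08 ± 0.22 (46.6 ± 8.77 to 43.9 ± 15.1 CPM, SD, n = 4 each; edgeR adjusted p = 0.971), and -0.35 without animal 16 (adjusted p = 0.527). Itgb2 stood at 13.1, 19.9, 15.7 and 20.3 CPM in the control-compound animals and at 13.4, 19.0, 14.2 and 13.5 CPM in the ABT263 animals, where animal 16 was again the highest. Its log2 fold change was -0.20 ± 0.17 (17.2 ± 3.45 to 15.0 ± 2.70 CPM; edgeR adjusted p = 0.877), and -0.33 without animal 16 (adjusted p = 0.633).

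Itgam showed the same kidney. It stood at 4.80, 3.93, 3.83 and 4.68 CPM in the control-compound animals, and at 2.44, 6.46, 2.53 and 2.96 CPM in ABT263 animals 15, 16, 17 and 18. Of the ABT263 kidneys 3 were below the whole control-compound range and animal 16 above it. The log2 fold change of Itgam was -0.26 ± 0.31 (adjusted p = 0.919), and -0.70 without animal 16 (adjusted p = 0.406). Itgax stood at 7.73, 15.2, 13.2 and 12.6 CPM with the control compound and at 7.70, 18.9, 10.8 and 11.7 CPM with ABT263 (0.01 ± 0.28, adjusted p = 0.998). Animal 16 was also the highest ABT263 kidney for Itgal (9.52 CPM, the others 4.21 to 8.22), Selplg (9.63, the others 6.61 to 7.50) and Selp (1.85, the others 0.592 to 1.31), and the lowest for Icam2 (6.40, the others 7.04 to 8.68). Its macrophage marker sum (380 CPM) was within the range of the other ABT263 kidneys (361 to 410 CPM), while its general leukocyte sum (128 CPM, the others 83.6 to 95.8) was above it and its endothelial sum (588 CPM, the others 738 to 852) below it. The part of these markers in the values of animal 16 was not tested.

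**Figure D4:**
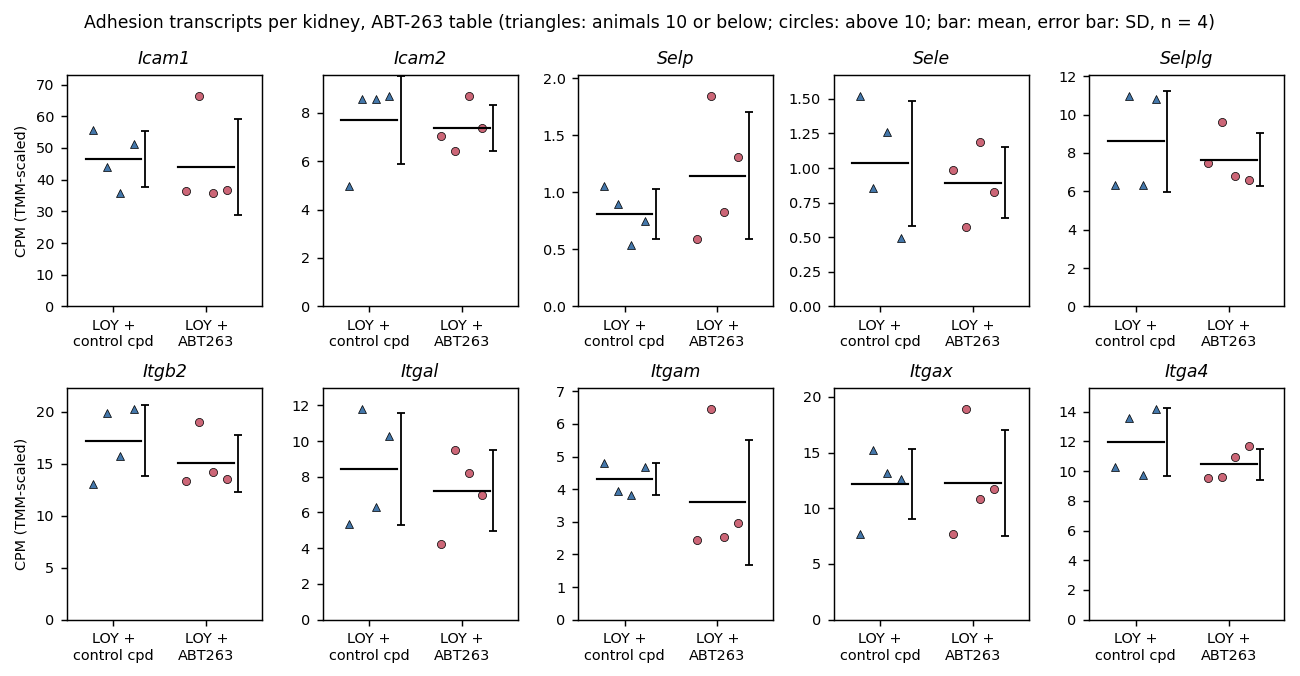
Level of each adhesion transcript (CPM, y axis from 0) in 4 LOY kidneys with control compound and 4 with ABT263; lines are means, error bars the SD, triangles animals numbered 10 or below and circles those above 10. All 10 panels overlap, and 1 ABT263 kidney, animal 16, stands above the others for Icam1, Itgam and Itgb2.

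Without control-compound animal 6 the log2 fold changes were 0.01 for Icam1, -0.31 for Itgb2, -0.20 for Itgam and -0.15 for Itgax, and 0 members passed in edgeR (9 of all tested genes did). The remaining members overlapped between the treatments. Itga4 had a log2 fold change of -0.20 ± 0.16 (11.9 ± 2.26 to 10.4 ± 1.07 CPM; edgeR adjusted p = 0.868), Itgal one of -0.22 ± 0.30 (adjusted p = 0.932) and Selplg one of -0.18 ± 0.23 (adjusted p = 0.926). Icam2 differed by -0.06 ± 0.20 (adjusted p = 0.972), with control-compound animal 6 lowest at 4.98 CPM and the other 3 between 8.56 and 8.71 CPM. Without animal 6 the log2 fold change of Icam2 was -0.22, so its small value over all 8 kidneys rests on that animal. The selectins stayed low: Selp had 61 counts over the control-compound and 76 over the ABT263 kidneys (0.49 ± 0.40, adjusted p = 0.868), and Sele had 75 and 60 (-0.19 ± 0.40, adjusted p = 0.961). Of the 11 ratios 0 passed, with exact permutation p between 0.257 and 0.886. With 70 splits the smallest possible p is 0.0286, which adjusts to 0.314 for 1 ratio alone, so that at least 7 of the 11 would have had to reach it for any to pass. The log2 ratio of Icam1 to Pecam1 was -0.91 ± 0.20 with the control compound and -1.19 ± 0.73 with ABT263, and that of Itgb2 to Ptprc was -1.07 ± 0.29 and -1.01 ± 0.31 (n = 4 each).

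**Figure D5:**
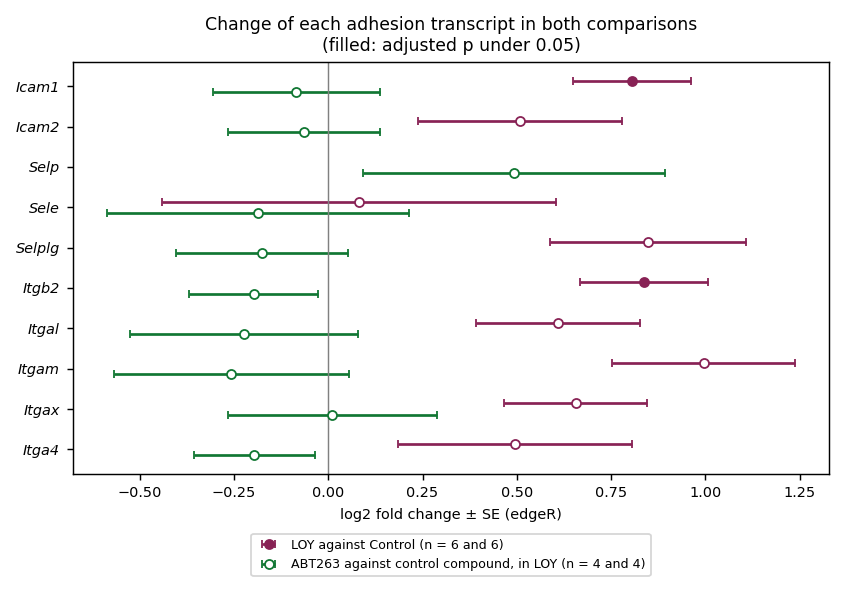
Log2 fold change with its SE (x axis) of the 10 adhesion transcripts in LOY against Control kidneys and in ABT263 against control-compound kidneys of LOY animals; filled points passed an adjusted p of 0.05, and Selp was tested in the second comparison alone. The LOY estimates lie between 0.08 and 0.995 and the ABT263 estimates between -0.26 and 0.49.

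The partner genes also gave 0 calls with ABT263 in edgeR and in DESeq2. The integrin activation list had a median of -0.16, with 14 of 16 genes lower, and 2 had an unadjusted p under 0.05: Arhgap25, a Rac inhibitor of leukocytes (5.28 ± 0.241 to 3.53 ± 0.366 CPM, -0.58 ± 0.17, edgeR adjusted p = 0.657), and Cyth1, a regulator of β2 integrins (-0.21 ± 0.08, adjusted p = 0.750). Rap1b, a GTPase that switches integrins on, had -0.17 ± 0.08 (adjusted p = 0.827). The groups did not overlap for any of these 3 genes, a separation found for 2.25% of all tested genes in this direction. Of 14 tested endothelial and ligand genes (median 0.08), Cd44 had -0.66 ± 0.26 and Vcam1 -0.64 ± 0.26 (adjusted p = 0.816 and 0.827), and Cdh5 had 0.23 (adjusted p = 0.827). The 12 tested integrin chains had a median of -0.08, led by Itga6 (-0.29), Itgav (-0.13) and Itgb5 (-0.11), and the 8 selectin ligand genes one of -0.05, led by St3gal4 (-0.28), B4galt1 (-0.28) and Gcnt1 (0.26). Macrophage markers summed to between 388 and 661 CPM with the control compound and between 361 and 410 CPM with ABT263, and the sum of the B and plasma cell markers was lower in 4 of 4 ABT263 kidneys (39.2 to 77.3 against 16.0 to 35.3 CPM). The 5 tested B and plasma cell markers moved unequally, with log2 fold changes from -1.63 to 0.21, 1 of them positive and 0 called in edgeR. The part of these cells in the members' values was not tested.

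Some members share exon sequence with another annotated gene, and the strand setting of the counts is not given in the sources used here. Of the Itgam exon length 68.7% lies within Gm49368 on the same strand; that gene is listed in the ABT-263 table with 0 to 2 counts per kidney and not in the LOY table, and how reads in both genes were assigned is not known. Icam1 shares 11.7% of its exon length with Gm47079 and Selp 14.1% with Gm16548 and Gm16587, all on the opposite strand and with 3 or fewer counts in each kidney of the tables that list them. Itga4 shares 8.04% with Cerkl on the opposite strand (0 to 13 counts per kidney in the LOY table and 12 to 29 in the ABT-263 table).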

How the data were processed

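The authors deposited whole-number counts per gene for kidney RNA, 1 library per animal, and the submitters' processing notes name mm10 as the genome; which strand setting, annotation, aligner or counter was used is not given in the sources used here. Members and lists were chosen with earlier results of these data known. The 2 tables were tested apart. An entry for reads without a gene (0.223% to 0.401% of the LOY table's counts) was left out. All genes were fitted by the robust quasi-likelihood F test of edgeR 4.0.16 (R 4.3.3) after TMM scaling, keeping genes that passed filterByExpr at its settings of 10 (count) and 15 (total), and adjusted by Benjamini-Hochberg over all tested genes, with a threshold of 0.05. Each SE was computed as the log2 fold change divided by the root of F. DESeq2 1.42.0 and voom with quality weights (limma 3.58.1) were alternatives, beside other scalings and filters, leaving out kidneys and animal number. Within-kidney ratios used counts plus 0.5 and exact two-sided permutation. The scripts were tested on simulated data. Replicate pairs differed by more than sampling noise (lowest ratio to Poisson 4.16 over 30 pairs and 3.62 over 12). Exon lengths and positions are from GENCODE M21 (GRCm38), and older symbols were matched through RefSeq. Named genes were all members, list genes past the threshold or, where fewer than 3 passed, the 3 of smallest p, and the 5 genes most like Icam1 and Itgb2. Where a list gives another gene, it was chosen after its values were seen. The result for 1 gene of the lists is not reported here.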

Additional observations from a re-analysis of the deposited data

Results flagged for a closer look

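Within each group the highest and lowest kidney were checked against Dixon's 95% critical value, over 84 sets of values, of which chance flags about 1 in 20; 6 stood apart. ABT263 animal 16 was far above the other 3 ABT263 kidneys for Icam1 (66.5 CPM, the others 35.8 to 36.9), Itgam (6.46, the others 2.44 to 2.96) and Itgb2 (19.0, the others 13.4 to 14.2). Control-compound animal 6 was far below for Icam2 (4.98 CPM, the others 8.56 to 8.71) and for the log2 ratio of Icam2 to Pecam1 (-4.32, the others -3.34 to -3.19). Control animal 3 was far below the other Control kidneys for the log2 ratio of Sele to Pecam1 (-8.75, the others -6.63 to -5.50), with 2 counts of Sele.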

How the results depend on the processing

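The number of members called with LOY was 2 in the reported fit, 1 with library totals alone, 5 with DESeq2, 4 with voom, 4 in the animals numbered above 10 alone, 0 with animal number above 10 as a term and 0 without LOY animals 8 and 10. It ran from 0 to 4 when 1 kidney was left out. The number of ratios called, 1 in the reported test, ran from 0 to 1 with 1 kidney left out. It was 0 in the animals numbered above 10 alone, where the 21 splits allow no p under 0.0476 and all 11 ratios would have had to reach it, so that this count says nothing of stability; Icam1 to Pecam1 differed by 0.99 there. Over all genes the LOY count was 176 in the reported fit, 105 with library totals alone, 866 with DESeq2, 1062 with voom, 451 in the animals above 10 alone, and 0 to 607 with 1 kidney left out. With ABT263, 0 members were called in the reported fit or in any alternative, and the count over all genes was 44 with DESeq2 and 11 with voom. The median of all genes moved by less than 0.05 between scalings, and no member changed direction with another scaling or filter.

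Signs changed as follows, all of them without a call. With LOY, Icam2 was -0.11 in the animals above 10 alone. Sele was -0.030 with voom, -0.070 in the animals above 10, -0.11 without LOY animals 8 and 10, and -0.31 to 0.50 with 1 kidney left out. The log2 ratio of Itgb2 to Ptprc differed by -0.025 in the animals above 10. With 1 kidney left out the LOY differences ran from -0.035 to 0.085 for Itgb2 to Ptprc, from -0.028 to 0.20 for Selplg to Ptprc and from -0.18 to 0.52 for Sele to Pecam1. With ABT263, voom gave 0.21 for Sele and -0.36 for Itgax. With 1 kidney left out the ABT263 values ran from -0.35 to 0.011 for Icam1, from -0.22 to 0.00099 for Icam2, from -0.42 to 0.063 for Sele and from -0.27 to 0.18 for Itgax. The ratios ran from -0.12 to 0.17 for Itgal to Itgb2, from -0.085 to 0.18 for Itgb2 to Ptprc, from -0.028 to 0.22 for Selplg to Ptprc, from -0.057 to 0.24 for Itga4 to Ptprc and from -0.17 to 0.60 for Selp to Pecam1. The cause was not tested. No paired analysis was possible because the animals compared share no number within a table. Selectin counts (1 to 32 per kidney) limit what can be seen for Selp and Sele.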
